A study of Saccharomyces cerevisiae with 6 samples.

Results

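The comparison is between 2 deletion strains of the budding yeast Saccharomyces cerevisiae, cln3Δ and whi5Δ, and its members are the 6 genomic run-on arrays of these strains, chosen by sample title from 18 run-on arrays in all. Each strain had 3 arrays, and the 3 arrays of the wild-type haploid BY4741 (TR WT N) served to say which deletion strain departed from wild type at a spot. The remaining 9 arrays came from wild-type strains of higher ploidy (TR WT 2N, 3N and 4N) and were used as a further wild-type reference and for the shared estimate of the spread. All strains were grown exponentially in the rich medium YPD, per the growth label, but the source label of the cln3Δ sample names wild-type cells with 0.6 M KCl. Title, description and strain label of that sample name the deletion and were followed, so every direction given for cln3Δ rests on them and its medium is uncertain. The source label of the whi5Δ sample likewise reads wild type, and its other labels name the deletion. The sources used here do not give the ploidy, mating type, auxotrophic markers, number of clones or cell volume of the deletion strains. Whether the 3 arrays of a strain came from separate cultures is not stated, so the p-values measure the spread between arrays, which may be technical.

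CLN3 encodes a G1 cyclin that, with the cyclin-dependent kinase Cdc28, starts the transition from G1 into S phase. WHI5 encodes the repressor that holds back the transcription factor SBF in early G1, and phosphorylation of Whi5 releases it. Loss of the cyclin delays this transition and is known to give large cells, and loss of the repressor advances it and is known to give small cells, so the strains are opposite perturbations of 1 switch. Genomic run-on reads transcription itself: sarkosyl (0.5%) opens the cells and stops new initiation, and polymerases already on a gene add 33P-labelled UTP to their RNA for 5 minutes at 30 °C. The label that an open reading frame captures on the membrane then follows the density of transcribing polymerase over it.

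Each membrane carried its spots in 16 rows and 24 columns of blocks with 16 positions each. The files name a spot by this place and pair it with no gene, so no gene group is described and no sequence is given. The level of a spot is its background-subtracted run-on signal divided by the signal of genomic DNA on the same membrane, as log2, with each array's median set to 0 and its median absolute deviation (MAD) made equal to that of the other arrays. A level of 1 thus lies 1 log2 unit above the array's median spot. A spot was taken as above background where its deposited signal-to-noise ratio (S/N) was at least 2. The cln3Δ arrays were on membranes 13, 14 and 15, the whi5Δ arrays on 15, 16 and 17 and the haploid arrays on 12, 13 and 14. The cln3Δ strain therefore shared 2 membranes with the haploid and 1 with whi5Δ, and whi5Δ shared none with the haploid. On the 6 arrays of the deletion strains, 76.5% to 81.4% of spots were above background and the median signal ran from 40.36 to 134.05. Levels correlated with r = 0.863 to 0.934 between cln3Δ arrays, 0.866 to 0.939 between whi5Δ arrays and 0.836 to 0.896 between arrays of different deletion strains, so arrays of 1 strain were only slightly more alike than arrays of both.

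The first question was whether polymerase density as a whole differed between the deletion strains. Before centring, the array medians of the log2 ratio were -0.03, 0.76 and 0.86 in cln3Δ and 0.04, 1.43 and 0.77 in whi5Δ, against 0.51, 1.01 and 0.93 in the haploid. The groups overlapped, and in both deletion strains the array of run-on 1 was the lowest. The means were 0.53 ± 0.49 and 0.75 ± 0.69 (SD, n = 3 each), a difference of -0.22 (two-sided exact permutation test, p = 0.7, where 3 arrays against 3 cannot go below 0.1). On membrane 15, which held run-on 3 of cln3Δ and run-on 1 of whi5Δ, the difference had the opposite sign, 0.82. Over all 6 arrays it turned to 0.07 without cln3Δ replicate 1 and to 0.12 without whi5Δ replicate 2. No source used here gives the exposure or the amount of labelled RNA for each membrane. All further results are relative to the array median.

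**Figure D1:**
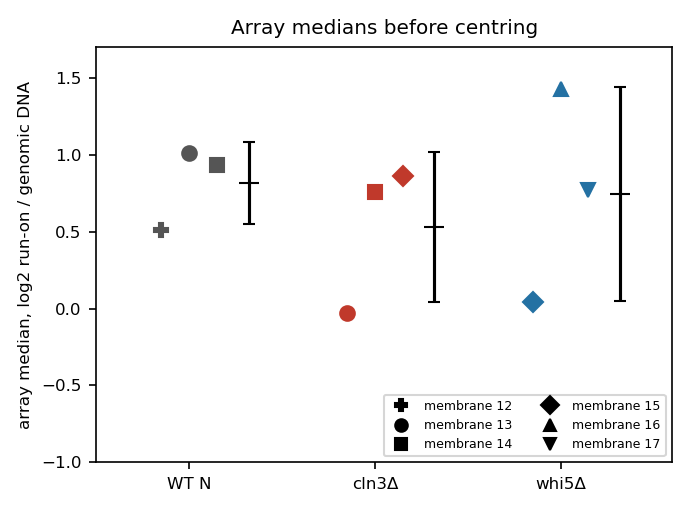
Median of log2(run-on signal / genomic DNA signal) on each haploid, cln3Δ and whi5Δ array before centring (y axis), by strain (x axis). Symbols give the membrane, and the bar beside each strain is the mean ± SD of 3 arrays. The strains overlap, and the cln3Δ and whi5Δ arrays on membrane 15 stand at 0.86 and 0.04.

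After centring, cln3Δ and whi5Δ differed at 94 of 5934 tested spots (1.58%; limma, Benjamini-Hochberg adjusted p under 0.05). In cln3Δ, 64 spots (1.08%) were higher and 30 (0.506%) were lower than in whi5Δ. The median size of the fitted difference was 1.42 log2 units among the higher spots, with a range of 0.59 to 7.55, and 1.46 among the lower spots, with a range of 0.65 to 7.22. The largest fitted value on each side was set against signals not above background and is no fold. For most of the membrane the strains lay close together: 5109 of the 5934 spots (86.1%) differed by under 0.5 log2 units. Where all 6 values existed, the 3 cln3Δ values lay wholly outside the range of the 3 whi5Δ values at 88 of 89 called spots. Among all spots with 6 values, 7.83% had all cln3Δ values above and 7.3% all of them below.

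The changed spots were not confined to bright or dim spots. Ranked by mean signal, the dimmest quartile of tested spots held 35 of the 94 calls (2.36% of its spots) and the following quartiles held 24, 16 and 19 (1.62%, 1.08% and 1.28%). Both strains were above background on all 3 arrays at 45 of the 94 called spots, against 4142 of the 5934 tested (69.8%). At 16 of the 64 higher spots whi5Δ was above background on no array while cln3Δ was on at least 1. At 10 of the 30 lower spots the reverse held. No share over all tested spots stands beside these counts. For a spot of either kind only a lower bound of the fold can be given. It is set by the dim spot's measured signal or, if higher, by the faintest signal above background on the same array. These bounds ran from 1.91-fold to 28.5-fold among the 16. Among the 10 they ran from 1.19-fold to 5.6-fold for 9 spots and gave no fold for the other. At 6 called spots neither strain was above background on any array, 5 of them higher and 1 lower in cln3Δ, and their differences carry no fold.

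The called spots were spread over 87 of 384 blocks, with at most 2 in a block. By position within a block, 10 of the 64 higher spots stood at position 5 and 10 at position 14, where 375 and 376 spots were tested, and 7 of the 30 lower spots stood at position 11. Median differences over all spots of a position ran from -0.06 to 0.10 in the comparison of the strains, but from -0.31 to 0.29 on membrane 15 alone, so the pair of arrays on that membrane carried shifts by print position. With every array centred within each position, an alternative added after seeing the data, 96 spots were called, 84 of them among the 94.

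Membrane 15 held an array of each deletion strain, so their difference there does not depend on membrane, and the genomic DNA signal enters both sides alike. To use it as a separate reading, the fit was repeated without these 2 arrays, and its calls were then read on membrane 15. Without them, 59 of 5930 spots were called (0.995%), 37 higher and 22 lower in cln3Δ. Of the 58 with a value on membrane 15, 53 (91.4%) differed there in the called direction, against 49.2% of all 5910 spots with both values. The agreement held for 33 of 37 higher spots and 20 of 21 lower spots. The higher spots differed by a median of 1.88 log2 units on the other membranes and 1.95 on membrane 15. The lower spots differed by a median of 1.92 on the other membranes and by 0.74 in the called direction on membrane 15. At the 5 spots that went the other way the opposite difference was 0.20 to 1.09 log2 units. None of the 5 was among the 94, but the fit behind the 94 included membrane 15. An opposite difference there worked against a call. Across all 5910 spots the differences on membrane 15 and on the other membranes had a Pearson correlation of 0.17 and a Spearman correlation of -0.01, as a description over spots of the same arrays. The separate reading therefore held for called spots, and the small differences of the remaining spots showed no common order.

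**Figure D2:**
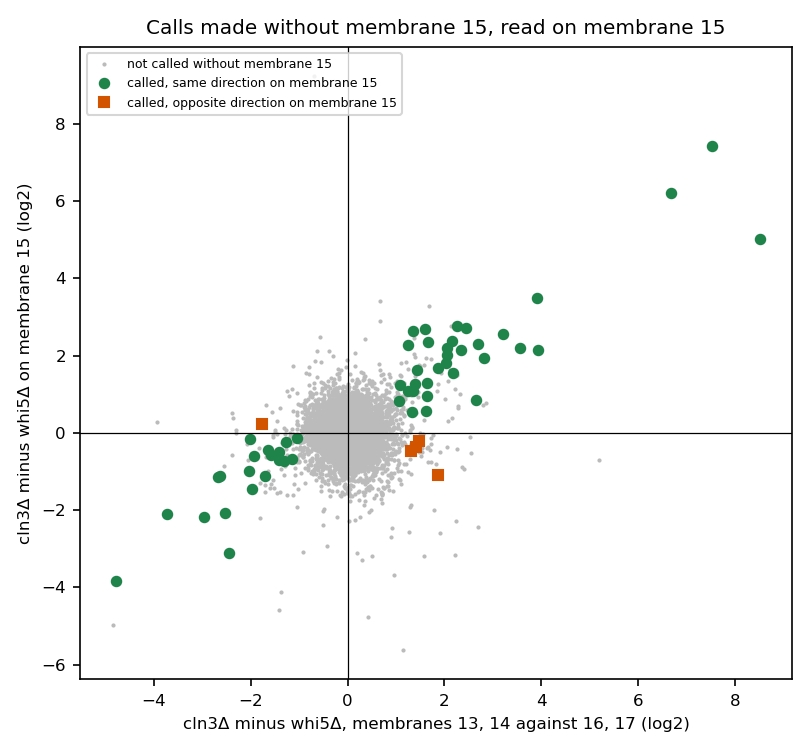
Each point is a spot, with the log2 difference between cln3Δ and whi5Δ on membranes 13 and 14 against 16 and 17 (x axis) and on membrane 15 (y axis). Of 58 spots called without membrane 15, 53 (green) lie in the same direction on membrane 15 and 5 (orange) in the opposite direction, while the other spots (grey) form a cloud around 0.

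With membrane as a fixed term in the fit, 21 spots were called, 16 higher and 5 lower, and 20 of these were among the 94. Single arrays weighed on the count as well. It was 45 without cln3Δ replicate 2, 47 without whi5Δ replicate 2 and 62 without whi5Δ replicate 3, and 44, 47 and 59 of these calls were among the 94. A set of 16 spots was called under each of 24 settings, which leave out only the 2 settings that remove dim spots or spots of weak genomic DNA. In cln3Δ, 13 of the 16 were higher and 3 lower, with fitted differences of 1.78 to 6.74 log2 units. The largest was set against whi5Δ signals not above background. The same held at row 4, column 11, position 8 and at row 7, column 22, position 6. It also held at row 12, column 5, position 8 and at row 14, column 23, position 14. For these spots only lower bounds can be given, from 2.44-fold to 5.17-fold. With the 2 filter settings included 7 spots were called throughout, 5 higher and 2 lower.

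The next question was which deletion strain departed from the haploid at the 94 spots. By position of the means it was more often cln3Δ, but at few spots did a test separate the strains in this respect. At 74 spots (78.7%) the haploid mean lay nearer to whi5Δ, so that cln3Δ was the further strain, and at 20 spots (21.3%) whi5Δ was further. Among all 5932 tested spots with a haploid value the haploid was nearer to whi5Δ at 54.2%. Of the 64 higher spots cln3Δ was further at 49 and whi5Δ at 15, and of the 30 lower spots cln3Δ was further at 25 and whi5Δ at 5. At the 49 higher spots the median departure from the haploid was 1.13 log2 units in cln3Δ and -0.30 in whi5Δ. At the 25 lower spots it was -1.57 in cln3Δ and -0.05 in whi5Δ. At the 15 higher spots where whi5Δ was further the medians were -0.77 in whi5Δ and 0.48 in cln3Δ, and at the 5 lower spots they were 0.80 and -0.46, so at these 20 spots the haploid typically stood between the deletion strains rather than beside cln3Δ.

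The haploid mean fell between the deletion means at 67 of the 94 spots, against 41.5% of all tested spots, and outside them at 27. The 94 spots were picked for a difference between the deletion strains. A wider gap holds the haploid mean more often by construction, so no conclusion is drawn from the contrast with 41.5%. Among the lower spots the haploid mean stood above both at 13 of 30 and below both at 0. Among the higher spots it stood below both at 11 of 64 and above both at 3.

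**Figure D3:**
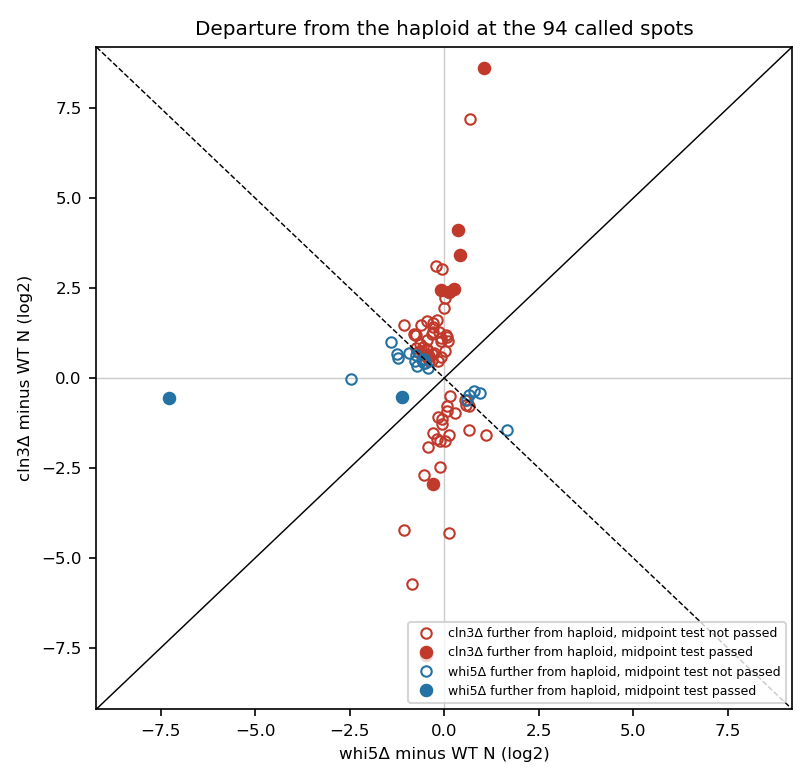
Log2 departure from the haploid of whi5Δ (x axis) and cln3Δ (y axis) at the 94 called spots, with the diagonal where the deletions are equal (solid) and the line where they depart equally in opposite directions (dashed). Red points are the 74 spots where cln3Δ was further from the haploid and blue points the 20 where whi5Δ was, and filled points are the 10 that passed the midpoint test.

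Whether a strain was further was tested with the midpoint of the deletion strains against the haploid, a contrast that with full data is independent of the difference between them. Over all tested spots it passed at 12 (0.202%), and 10 of those were among the 94. At 8 of these 10 cln3Δ was the further strain and at 2 whi5Δ. In the 8, the fitted log2 difference of cln3Δ from the haploid was 2.38 to 8.61 at 6 spots and -2.96 and -7.70 at the others, while that of whi5Δ lay between -0.48 and 1.06. The most extreme value on each side rests on signals not above background and is no fold. Of the 10, row 10, column 16, position 12 and row 16, column 19, position 11 each lacked a whi5Δ value. Row 14, column 1, position 5 had a value on only 1 cln3Δ array, so call and midpoint both rest on it. At these places the contrast is not independent of the difference. At the remaining 84 spots the test did not pass, and the further strain there is a description of the means. Without adjustment the test passed at 37 spots with cln3Δ further and 3 with whi5Δ further. A failed test does not show equal departures: in simulated data with only cln3Δ moved, the adjusted test passed at 46.5% of true calls. Against the haploid directly, cln3Δ was called at 38 of the 94 spots, 22 of them higher and 16 lower than the haploid. Over all 5933 spots tested it was called at 43 (0.725%), 24 higher (0.405%) and 19 lower (0.32%). The whi5Δ strain was called at 3 of the 94, all of them lower than the haploid, and over all 5933 spots at 5 (0.0843%). Of the 94, 0 were called for both and 53 for neither, and these comparisons share the haploid arrays. They also use the deletion arrays that made the 94 calls, so their overlap with the 94 is partly built in.

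Membranes bear on these departures, since whi5Δ shared none with the haploid. On membranes 13 and 14, where cln3Δ and the haploid can be compared directly, cln3Δ departed by medians of 1.33 and 1.18 log2 units in the called direction at the spots assigned to it. The assignment used these same arrays, so these values only describe it. Against the triploid on membrane 13, cln3Δ differed in the called direction at 63 of 72 spots, by a median of 1.01. Only the triploid side was new there, since the cln3Δ array had entered the calls and the assignment. At the spots assigned to whi5Δ, that strain differed from the diploid in the called direction at 16 of 19 on membrane 16, by a median of 0.77 log2 units, and at 16 of 19 on membrane 17, by 0.37. From the tetraploid on membrane 17 it differed so at 16 of 19 spots, by a median of only 0.17. The whi5Δ arrays had likewise entered the calls, and no share over all spots stands beside these counts. With membrane as a fixed term the midpoint test passed at 4 spots with cln3Δ further and at 0 with whi5Δ further.

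The polyploid wild types gave a second reference from 9 other arrays. Their mean was nearer to whi5Δ at 62 of the 94 spots (66.0%) and nearer to cln3Δ at 32, where 51.8% of all tested spots were nearer to whi5Δ. The order differed by direction. At spots higher in cln3Δ the polyploids were nearer to whi5Δ at 52 of 64, and at spots lower in cln3Δ they were nearer to cln3Δ at 20 of 30. The midpoint of the deletions against the polyploid mean passed the test at 167 of 5933 spots (2.81%), and among the 94 at 25 spots with the polyploids nearer to whi5Δ and 13 with the polyploids nearer to cln3Δ. Haploid and polyploids were both nearer to whi5Δ at 50 spots and both nearer to cln3Δ at 8. At 24 spots the haploid was nearer to whi5Δ and the polyploids to cln3Δ, and at 12 the reverse held. The polyploids had arrays on membranes 16 and 17 with whi5Δ and on membrane 13 with cln3Δ.

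A few spots separated 1 deletion strain from all other strains. At row 14, column 1, position 5, signal was 0, 0 and 0.873 on the 3 cln3Δ arrays, with S/N of at most 0.077. On the whi5Δ arrays it was 86.855, 284.647 and 147.685, and on the haploid arrays 96.339, 179.782 and 86.271, with S/N of at least 2.741 on all 15 arrays of the other strains. The spot was thus silent in cln3Δ alone. Its level was at least 5.6-fold lower than in whi5Δ (adjusted p = 3.4e-08), a test that used the single cln3Δ array with signal, and with signals floored at background the log2 difference was -2.52 (adjusted p = 5.2e-05). Genomic DNA was above background on 4 of 7 membranes.

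The mirror image stood at row 10, column 16, position 12. Signal there was 1.483, 0 and 0.185 on the whi5Δ arrays, with S/N of at most 0.235, and 44.099, 94.501 and 64.651 on the cln3Δ arrays. S/N was at least 7.06 on all 15 arrays of the other strains, and genomic DNA was above background on all 7 membranes. The level was at least 5.17-fold higher in cln3Δ (adjusted p = 2e-05) and the call was made under all 26 settings. In the midpoint test whi5Δ was the further strain (adjusted p = 0.0018). Over all spots, these were the only called spots above background on every array of 5 strains and on no array of the sixth, when that strain was cln3Δ or whi5Δ. A further spot met the same S/N limits for whi5Δ, but its S/N there was 1.698 to 1.944 and it was not called (log2 difference -0.06, adjusted p = 0.97). The files do not say which open reading frames these spots carry, so whether they are CLN3 and WHI5 was not tested. Both places were singled out after their values were seen.

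The opposite pattern, signal above background on all 3 arrays of 1 strain and on none of the other 15, occurred at 4 spots for cln3Δ and at 0 for each of the other 5 strains. All 4 were called higher in cln3Δ than in whi5Δ. The pattern was picked on these same arrays, so the calls and their p-values are no separate support. The brightest was at row 16, column 19, position 11, with signals of 278.474, 379.402 and 390.191 in cln3Δ, 1.661, 4.05 and 0 in whi5Δ and 0.68, 0.442 and 1.198 in the haploid. At row 3, column 2, position 8 the signals were 193.879, 188.544 and 335.29 in cln3Δ, 3.154, 7.242 and 3.128 in whi5Δ and 0, 3.124 and 0 in the haploid. Level was at least 28.5-fold and at least 25.5-fold higher in cln3Δ than in whi5Δ at these places (adjusted p = 0.00028 and 0.00019). Genomic DNA was at or above the S/N limit there on 3 and on 6 of 7 membranes, and the bounds take its signal as measured. The other 2 were dimmer, with bounds of 5.26-fold and 8.22-fold, and genomic DNA at or above the S/N limit on 0 of 7 membranes. All 4 calls were lost with membrane as a fixed term (adjusted p = 0.11, 0.051, 0.057 and 0.065 in order of row), where their log2 differences were 6.21, 2.82, 2.95 and 7.99. Why only cln3Δ carried such signal was not tested.

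Among spots measured on both sides, 30 called spots had S/N of at least 2 on all 6 arrays and on the genomic DNA of membranes 13 to 17. In cln3Δ 23 were higher, by a median of 1.25 log2 units, and 7 were lower, by a median of 1.51. At all 30 the values of the strains did not overlap, which follows largely from the call, as at 88 of 89 called spots with 6 values. Over all spots with 6 values, cln3Δ lay wholly above at 7.83% and wholly below at 7.3%. The cln3Δ strain was further from the haploid at 24 and whi5Δ at 6, and none of the 7 lower spots had whi5Δ further. From these spots the largest difference of each kind is given.

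The largest rise with cln3Δ as the further strain was at row 12, column 15, position 4. Levels there were 2.31, 1.65 and 1.57 in cln3Δ, -1.15, -0.45 and -0.47 in whi5Δ and -0.71, -0.19 and -0.93 in the haploid, and the 9 polyploid arrays lay from -0.40 to 0.00. All 3 cln3Δ arrays stood above all 15 others. Genomic DNA on membrane 12 was not above background at this spot (S/N 0.241). Haploid replicate 1, triploid replicate 2 and tetraploid replicate 3 were divided by it, so these levels are uncertain. The spot was not tested where genomic DNA had to be above background throughout. The log2 difference between the deletions was 2.53 (SE 0.24, adjusted p = 2e-05), on membrane 15 it was 2.71, and the midpoint test passed (1.19, SE 0.21, adjusted p = 0.022). That last call was lost without genomic DNA division (adjusted p = 0.41), with only the 3 haploid and deletion strains (0.29), without haploid replicate 1 or 3 (0.15 and 0.26) and without whi5Δ replicate 2 or 3 (0.067 and 0.069).

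The largest rise with whi5Δ as the further strain was smaller, at row 3, column 3, position 5. Levels were -1.09, -0.50 and -1.07 in cln3Δ, -2.74, -2.11 and -1.96 in whi5Δ and -1.77, -1.62 and -1.16 in the haploid. The haploid values lay between the deletion strains without overlapping either. The difference was 1.38 (SE 0.31, adjusted p = 0.031), and the midpoint lay only -0.06 (SE 0.27) from the haploid, so the departure was nearly even. Its S/N in whi5Δ was 2.055 to 2.605. The call was lost with cyclic loess (adjusted p = 0.051), uncorrected density (0.28, log2 difference 0.78), membrane as a fixed term (0.10) and without any of cln3Δ replicates 1, 2 and 3 (0.056, 0.18 and 0.061) or whi5Δ replicates 1 and 2 (0.14 and 0.081).

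The largest fall was at row 16, column 20, position 1, a bright spot in haploid cells. Levels were -1.62, -1.49 and -1.51 in cln3Δ, 2.31, 3.58 and 2.82 in whi5Δ and 2.59, 3.09 and 2.63 in the haploid. The strains formed 2 sets: whi5Δ and the haploid were high, and cln3Δ stood with the 9 polyploid arrays, which lay from -3.72 to -1.06. The difference between the deletions was -4.45 (SE 0.58, adjusted p = 0.00041) and -3.83 on membrane 15. The midpoint test did not pass (-2.09, SE 0.51, adjusted p = 0.20), although it did without genomic DNA division, with uncorrected density, with run-on number and membrane as terms together and with only the haploid and deletion strains (adjusted p = 0.00024, 0.049, 0.003 and 0.025).

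At row 14, column 4, position 9 the levels were 0.90, -0.21 and 1.13 in cln3Δ, 2.57, 2.41 and 2.18 in whi5Δ and 2.71, 2.04 and 2.32 in the haploid. The whi5Δ and haploid values overlapped, and all cln3Δ values were below both. The polyploid arrays, from 0.51 to 2.16, reached from the cln3Δ range nearly to that of whi5Δ. Genomic DNA on membrane 18, used for diploid replicate 3, triploid replicate 1 and tetraploid replicate 2, was not above background (S/N 0.072). The difference between the deletions was -1.78 (SE 0.34, adjusted p = 0.011) and -1.44 on membrane 15. The midpoint test did not pass (-0.86, SE 0.29, adjusted p = 0.89). It was not called with membrane fixed in the fit (log2 difference -1.16, adjusted p = 0.34) and without cln3Δ replicate 2 or whi5Δ replicate 2 (adjusted p = 0.061 and 0.053).

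**Figure D4:**
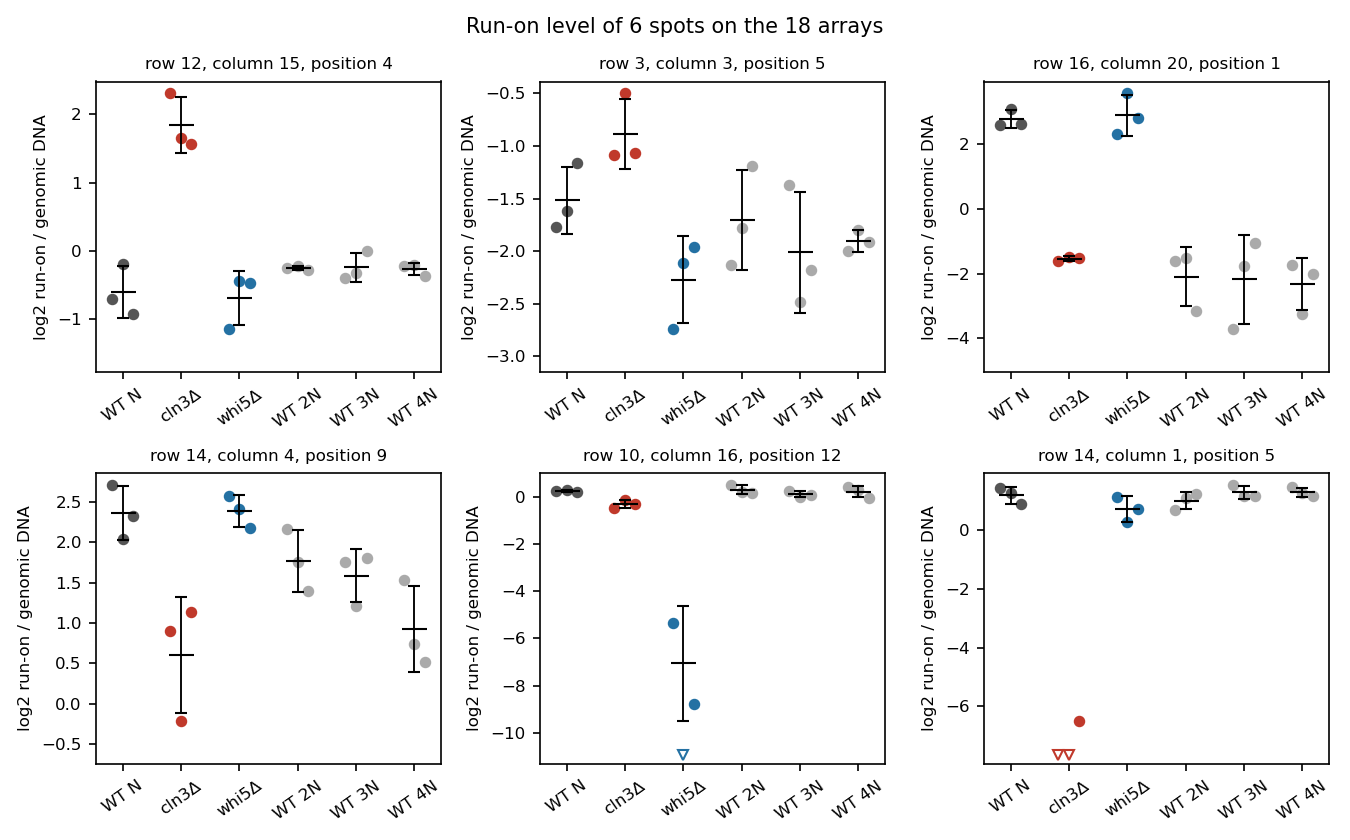
Level of 6 spots on all 18 arrays (y axis, log2 of run-on over genomic DNA, centred and scaled) by strain (x axis). Filled points are arrays, bars are mean ± SD where at least 2 arrays had signal, and open triangles at the lower edge mark arrays with a signal of 0. Row 10, column 16, position 12 falls in whi5Δ alone and row 14, column 1, position 5 in cln3Δ alone, while at row 16, column 20, position 1 cln3Δ stands with the polyploids and whi5Δ with the haploid.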

How the data were processed

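Per the file headers, the deposited tables give an intensity per area for each spot, its background and a background-subtracted intensity, which on the values is density less background with negative results set to 0. S/N, as deposited, is a score. The authors' text names a later MAD normalisation, which these values do not carry. No source used here names the imaging program. Of 36 files, 18 are genomic DNA tables that hold 7 hybridisations, 1 per membrane.

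Strains were taken from sample titles, and run-on number (the replicate number here) and membrane from the deposited array names. Log2 ratios of run-on to genomic DNA signal were centred on the array median and scaled to a common MAD. A spot needed genomic DNA signal over 0 on each of the 7 membranes and run-on signal over 0 in every array of 1 or more strains, and 207 spots did not meet this. Signals of 0 were missing (240 values, 0.22%). All 18 arrays were fitted as strain means by lmFit and eBayes of limma 3.58.1 (R 4.3.3), with Benjamini-Hochberg adjustment over all tested spots. The median standard error of the difference between the deletion strains was 0.25 log2 units, and the number of arrays limits the precision. The comparison was also tested on simulated data (5845 spots). There, 65% of spots shifted by 1 log2 unit and 92% of those shifted by 2 were recovered, and 6% of calls were false. These shares describe the simulated data only. The number of measured calls was 21 with membrane as a fixed block and 182 with run-on number and membrane as blocks together. Whether the simulated share of false calls holds for the measured calls was not tested.

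Named spots are, in each direction, the largest non-overlapping difference with S/N of at least 2 on all 6 arrays and on the genomic DNA of membranes 13 to 17, with cln3Δ and with whi5Δ as the further strain, or the next largest where a kind was empty, as for the falls with whi5Δ further. Other spots are said to be outside this rule or are given without it. The comparison, lists and tests were chosen with earlier results of these data known. Same-numbered arrays of the deletion strains had deviations from the strain means that correlated with r = 0.182, 0.266 and 0.036, so run-on number was not taken to pair them. Run-on 1 nevertheless had the lowest MAD before scaling and the fewest signals of 0 in every strain. The main fit had no term for run-on number. Alternatives were other scalings, no genomic DNA division, uncorrected density, filters and floors on dim spots, blocks for run-on number or membrane (statmod 1.5.0 for the random block), fewer strains, a variance trend and leaving out each haploid, cln3Δ and whi5Δ array in turn.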

Additional observations from a re-analysis of the deposited data

How the results depend on the processing

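The 94 calls between cln3Δ and whi5Δ, and their split, held within 1.5 times under MAD-free, quantile and cyclic loess scaling, without the signal filter, with floored signals, a random membrane block (121 calls) and a variance trend. Beyond that range, without genomic DNA division 42 spots were higher, and the polyploids were nearer to whi5Δ at 39. Of the 94, 54 were called there. With uncorrected density the midpoint test passed at 15 spots with cln3Δ further and at 1 with whi5Δ further. With the upper 75% of signal there were 49 calls, 33 higher and 16 lower, with cln3Δ further at 42 (5 passing) and the polyploids nearer to whi5Δ at 32. With genomic DNA above background throughout there were 50 calls, 34 higher and 16 lower, with cln3Δ further at 36 (5 passing) and the polyploids nearer to whi5Δ at 30. Both filters test fewer spots. Run-on number as a replicate block gave 144 calls, 52 of them lower, with 15 passing for cln3Δ. All 94 were among the 144. Membrane as a fixed block gave 21 calls, 16 higher and 5 lower, with cln3Δ further at 17 (4 passing), whi5Δ passing at 0 and the polyploids nearer to whi5Δ at 14. Both blocks gave 182 calls, 118 higher and 64 lower, with cln3Δ further at 125 (24 passing), whi5Δ passing at 5 and the polyploids nearer to whi5Δ at 129. Of the 94, 77 were among the 182. With only the haploid and deletion arrays 16 spots were lower and whi5Δ passed at 0. With centring within print position, chosen after seeing the data, whi5Δ passed at 1. Except for the filters, the cause of these shifts was not tested.

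Leaving out 1 haploid, cln3Δ or whi5Δ array gave 45 to 93 calls, 32 to 64 higher and 12 to 29 lower, with cln3Δ further at 37 to 68 (5 to 9 passing), whi5Δ passing at 1 to 3 and the polyploids nearer to whi5Δ at 29 to 61. The departures passing for cln3Δ fell to 5 without haploid replicate 1 or 2. The overall level difference ran from -0.57 to 0.12. The calls made without membrane 15 numbered 41 to 64 under other scalings, divisions and centrings, with 40 to 57 in the same direction on that membrane. At row 3, column 3, position 5 the midpoint changed sign, to 0.01 with quantile normalisation, 0.06 without genomic DNA division, 0.07 with uncorrected density, 0.06 with membrane as a fixed block, 0.02 with both blocks, 0.12 without haploid replicate 3 and 0.06 without whi5Δ replicate 1. Leaving out 1 of these arrays gave -0.19 to 0.12. It passed the test in none of them. At the median standard error, differences under about 1 log2 unit were often beyond reach of 3 arrays per strain.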
